A study of Caenorhabditis elegans with 2 samples.

Results

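Of the 5000 regions of the Caenorhabditis elegans genome with the highest pooled AMA-1 signal in L1 larvae, 875 lay at the 3' end of a protein-coding gene and away from any protein-coding 5' end. They were selected on pooled signal and on distance: a region's summit, the base at which the authors' peak caller placed its maximum, had to lie within 500 bp of an annotated 3' end and more than 500 bp from every annotated 5' end. The 875 regions were 17.5% of the 5000 (exact 95% interval 16.5 to 18.6) and came from a pooled list of 30000. A further 1953 of the 5000 lay within 500 bp of a 5' end, and 2172 lay away from both kinds of end. Their signal ranged from 18.2 to 803 with a median of 26.5, against a median of 25.7 over the 5000. This signal is the deposited value of the authors' peak caller, in units not given in the sources used here.

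AMA-1 is the large, catalytic subunit of RNA polymerase II, and chromatin immunoprecipitation followed by sequencing measures where in the genome it is bound. Chromatin was taken from whole L1 larvae, the first larval stage, of N2, the wild-type laboratory strain, in 2 biological replicates of mixed sex and unknown age. The replicates formed 1 group, with no treated or mutant animals, and what can be compared is therefore one place in the genome with another, and one replicate with the other. Whole animals mix all cell types, and few cells carrying much polymerase at a gene cannot be told apart from many cells carrying little.

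RNA polymerase II does not stop where a messenger RNA ends. It transcribes past the cleavage and polyadenylation site, the nascent RNA is cut there, usually shortly downstream of the hexamer AATAAA, and the polymerase slows and is released further along the template. Genes of C. elegans are packed closely, so this downstream stretch often reaches a neighbouring gene, and many genes sit in operons whose downstream members receive the SL2 spliced leader.

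The ends of the genes under several of the highest regions are printed here because they fix the point from which every distance below is counted. Each line holds the last 30 annotated bases of the gene, read 5' to 3' on its own strand from the WBcel235 genome of RefSeq. Capitals mark the AATAAA closest to the end. The genes are F44E5.5 (chrII:11761832-11761861, plus strand), zip-2 (chrIII:835785-835814, plus), R107.5 (chrIII:9051596-9051625, minus), R02F2.1 (chrIII:5506371-5506400, plus), xbp-1 (chrIII:4195329-4195358, plus) and unc-23 (chrV:8939655-8939684, plus).
F44E5.5: tctAATAAAtttacaaaaatctaaaacttc
zip-2: aatcaaAATAAAgtagaaaaatagaaataa
R107.5: ttgaataaactaAATAAAtttaaacacctt
R02F2.1: ttttgtttgAATAAAatgttaatgttaaat
xbp-1: atatttAATAAAaacagccatacatttttg
unc-23: gaataAATAAAtagtggatggcaaaaaaaa

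For contrast, nra-1 (chrIV:17281455-17281484, minus), adh-1 (chrV:11889621-11889650, plus) and ahsa-1 (chrV:15084059-15084088, minus) also carry high regions and have no AATAAA on the gene's strand in their last 50 bases.
nra-1: tttattcgagtaaagttgaatttttatcca
adh-1: tacatgaaagttataaaatattgaagtaca
ahsa-1: ataatattttcataaattcaacagattctg

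AATAAA, searched on the gene's strand only, stood in the last 50 bases of 415 of the 808 genes nearest to the 875 regions, or 51.4% (interval 47.9 to 54.9), against 48.2% of all 19973 protein-coding genes. Among genes with an annotated 3' UTR the order was the other way, with 52.8% of 786 against 56.8% of 16794. The interval of the second share, 49.2 to 56.3, lay just below its background, and that of the first held its background. Where the hexamer was found it began a median of 20 bases before the end, in the genes nearest to the regions as in all genes. From the start of the hexamer to the summit the median distance was 152 bases over 455 regions. The median T content of the 100 bases past the end was 31% for these genes and 34% for all protein-coding genes.

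Most summits stood downstream of the nearest gene rather than inside it. Of the 875, 667 lay past the annotated 3' end, or 76.2% (interval 73.3 to 79.0), and the median position was 151 bp past it, with quartiles at 20 and 241 bp. A stretch from 51 to 300 bp past the end held 486 summits, or 55.5%. Of the 208 summits inside the gene, 102 fell in the 3' UTR, 81 in coding sequence and 25 in an intron. A summit past the nearest gene could still lie in another. Against every protein-coding gene, 400 of the 875 summits, or 45.7%, lay in none. Coding sequence held 240, a 3' UTR 151, an intron 77 and another exon 7. The rule treats both sides of the end alike, and 48.9% of the bases it allows lie past the end.

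Counted per megabase of allowed sequence, summits numbered 111 past the end and 33.2 inside the gene, a ratio of 3.35. Density was 84.0 per Mb in the first 100 bp past the end, 184 from 101 to 200 bp, 152 from 201 to 300 bp, 78.4 in the next 100 bp and 45.7 in the last. Inside the gene no 100 bp step exceeded 45.5 per Mb. The density thus rose with the step past the end, was highest from 101 to 200 bp and was lower again in the outermost step.

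Each replicate's own 5000 highest regions, chosen without the pooled list, showed the same shape. Density past the end was 3.16 times that inside the gene in replicate 1 and 2.67 times in replicate 2. In the weaker part of the pooled list the ratio was 1.95 for ranks 5001 to 10000 and 1.52 for ranks 10001 to 30000. The share of summits past the end was 83.3% among the 276 regions at ranks 1 to 1328, 73.0% at ranks 1329 to 5000, 65.1% at ranks 5001 to 10000, 62.3% at ranks 10001 to 20000 and 55.7% at ranks 20001 to 30000. Position past the end therefore went with signal across all 5 steps of rank.

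**Figure D1:**
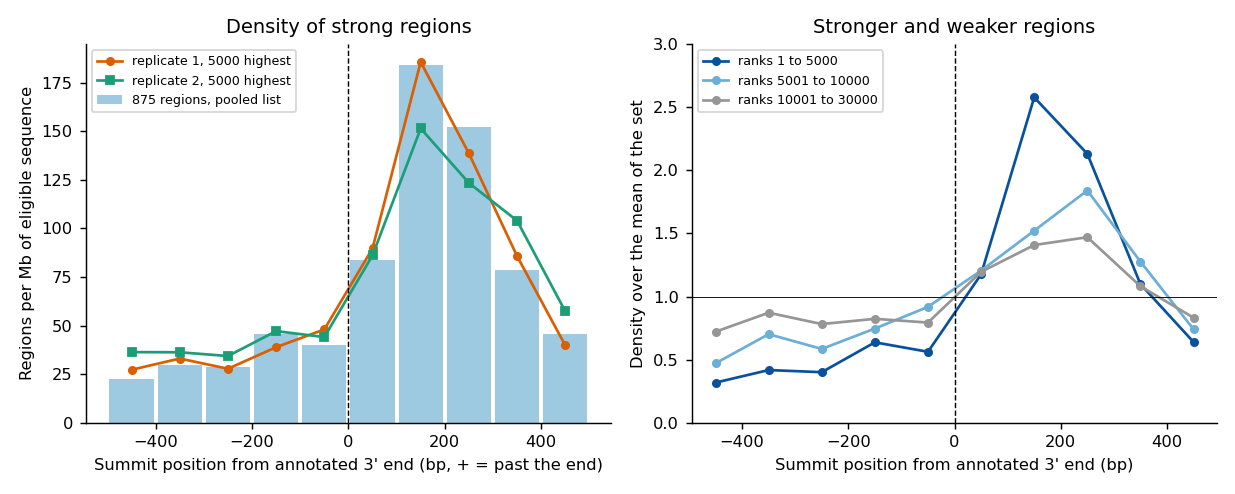
Regions per megabase of allowed sequence (left) in 100 bp steps from the annotated 3' end, for the 875 regions (bars) and for each replicate's own 5000 highest regions (lines), and the same density divided by the mean of its set (right) for 3 ranges of rank in the pooled list. All sets are densest between 100 and 300 bp past the end, where the 875 regions reach 184 per Mb, and the weaker sets are flatter.

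Short genes had the largest share of downstream summits. It was 91.8% of 134 regions at genes of up to 1000 bp, 73.7% of 251 up to 2000 bp, 77.0% of 331 up to 5000 bp and 65.4% of 159 at longer genes. At genes of up to 1000 bp the 500 bp limit around the 5' end takes away much of the gene's inside, so those shares are not over the same choice of positions.

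Summits were also compared between replicates. A replicate region was matched only if its summit lay within 200 bp of the pooled summit, and the pooled list was made from both replicates. Closeness of the matched summits, and their side of the end, are therefore partly set by the matching and are given as a description. Among the 751 regions listed in both, the replicates' summits were a median of 45 bp apart and 53.7% were within 50 bp. Both summits lay past the end at 73.0% of these regions and both lay inside the gene at 22.4%. Over every region listed in a replicate, 75.3% of summits in replicate 1 and 75.9% in replicate 2 lay past the end.

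The highest regions were at spliced leader RNA genes that happen to stand behind protein-coding genes. The region with the highest signal of all 5000 (chrI:4172047-4172543) had its summit 140 bp past the end of R12E2.11 and inside sls-2.4, a gene for the SL2 RNA that is spliced onto downstream messages of operons. Its signal was 803 in the pool, 465 in replicate 1 and 333 in replicate 2. The region behind ZK1248.17 (chrII:5844715-5845214) lay inside sls-2.1 and had 694, 404 and 297. Behind ins-13, an insulin-like peptide gene, the region at sls-2.3 had 145, 82.7 and 57.2, but only 48.1% of its 31-base words occur once in the genome. These regions meet the distance rule, yet a separate RNA polymerase II gene lies under the summit.

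In all, 86 of the 875 regions, or 9.83%, had an annotated non-coding RNA gene within 150 bp of the summit, against 11.6% of the 5000 highest regions. They were 40 genes of the general ncRNA class, 17 snoRNA, 11 tRNA, 10 snRNA, 4 miRNA, 3 lincRNA and 1 antisense RNA gene. Their median signal was 38.3, against 25.8 for the other 789. The 10 near snRNA genes, the class in which the annotation places SL2 RNA, had a median of 90.1 and all 10 lay past the end. Of the regions near tRNA genes, which RNA polymerase III transcribes, none exceeded 52.1. Without any of these 86 regions the density past the end was still 3.12 times that inside the gene.

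Other high regions with a non-coding neighbour stood behind mdl-1, hsp-12.3 and F44E5.4. Behind mdl-1, which encodes a MAD-like transcription factor of the MYC network, the region over the ncRNA gene R03E9.10 had 256 in the pool, 157 in replicate 1 and 112 in replicate 2. The region behind hsp-12.3, a small heat shock protein gene, lay in the snRNA gene F38E11.11 and had 214, 133 and 83.6, with 61.4% of its words unique. The region 148 bp past F44E5.4 was 40 bp from the ncRNA gene F44E5.16. Whether the polymerase there belonged to the protein-coding or the non-coding gene was not tested.

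Among regions with no annotated non-coding gene nearby, the 2 highest lay behind Hsp70 genes. The first (chrIV:17281181-17281642) lay between the converging genes hsp-1, the constitutive Hsp70 chaperone, and nra-1, a copine associated with nicotinic receptors. It was 71 bp past hsp-1 and 54 bp past nra-1, with a signal of 234 in the pool, 177 in replicate 1 and 68.9 in replicate 2. F44E5.5, which like its neighbour F44E5.4 encodes an Hsp70 family protein, had 192, 150 and 42.7 at 60 bp past its end, and F44E5.4 had 200, 127 and 69.8. Both belong to one gene family, and 93.5% and 95.8% of the 31-base words in their regions were unique.

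zip-2 and xbp-1, which both encode bZIP transcription factors, were also among the 15 highest regions listed in both replicates. zip-2, a factor of the response to infection, had 179 in the pool, 114 in replicate 1 and 67.0 in replicate 2 at 198 bp past its end. xbp-1, the factor of the unfolded protein response, had 133, 85.4 and 62.8 at 154 bp past its end. Both were high in each replicate, at rank 35 and rank 26 for zip-2 and rank 68 and rank 31 for xbp-1.

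R107.5 and R02F2.1, also among those 15, differed in how alike the replicates were. R107.5 had 165 in the pool, 135 in replicate 1 and 31.7 in replicate 2, which is rank 22 in the first list and rank 206 in the second. R02F2.1 had 154, 102 and 52.6, or rank 45 and rank 54. The region of R107.5 was thus much lower in replicate 2, and that of R02F2.1 kept a similar place. Lower in the list the replicates could lie further apart: pdi-3, a protein disulfide isomerase gene, was at rank 93 and rank 6757.

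**Figure D2:**
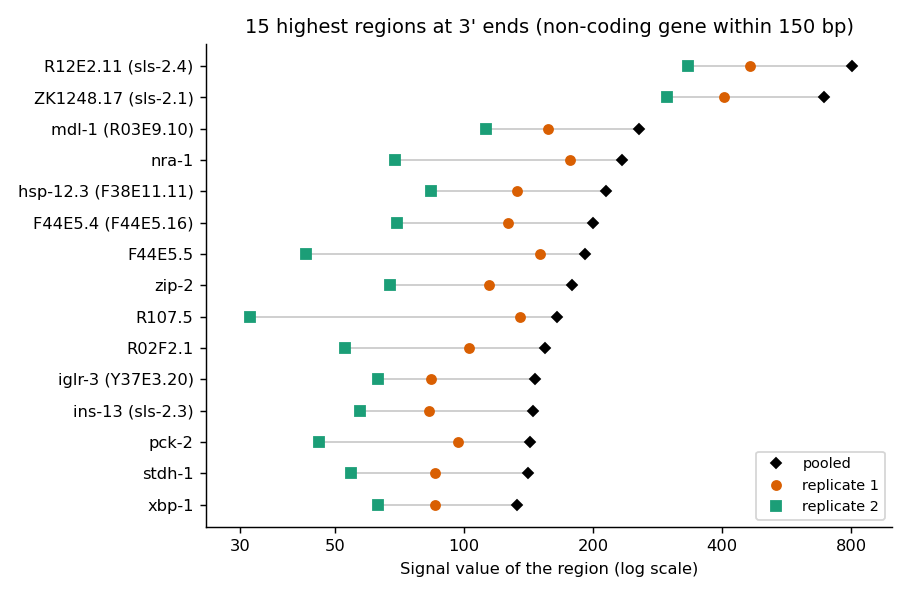
Signal (log axis) of the 15 highest regions at 3' ends that were listed in both replicates, in the pooled list (diamonds), replicate 1 (circles) and replicate 2 (squares), with the nearest gene and any non-coding gene within 150 bp in brackets. The regions over the SL2 RNA genes sls-2.4 and sls-2.1, at 803 and 694 in the pool, stand above all others, and replicate 2 is the lower value in each row.

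Genes that converge on each other, running towards a shared boundary, made up a large set: 336 of the 875 regions, or 38.4%, also had the 3' end of a gene on the opposite strand within 500 bp. A further 405 were at tandem neighbours, with the next gene on the same strand, and 134 had another arrangement. Of the 336, 220 summits lay past the nearer end and inside the opposite gene, 63 lay inside the nearer gene and past the other end, 51 lay past both ends and 2 lay inside both. The annotated ends overlapped at 221 of these regions, and the median gap over all 336 was -19 bp, a negative gap being an overlap. The share past the nearest end was 80.7% at convergent genes, 75.3% at tandem genes and 67.9% at the rest, with medians of 161.5, 145 and 137.5 bp.

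At the 283 convergent regions that were past one gene and inside the other, the gene that had been passed more often had a listed region at its own start than the gene under the summit. Any of the 30000 pooled regions lay within 500 bp of the 5' end for 83.0% of the passed genes and 62.9% of the genes under the summit, against 32.5% of all protein-coding genes. The 5' signal was higher at the passed gene for 181 of the 276 regions with a listed 5' region at either gene, or 65.6% (interval 59.6 to 71.2). Some gene pairs carried more than 1 of these regions, such as zip-2 and dos-3, where each was the passed gene at a different region. The interval counts such regions separately although they share the same 5' signals. In the separate lists it was 172 of 268 regions in replicate 1, or 64.2%, and 172 of 257 in replicate 2, or 66.9%. Restricted to regions with both 5' ends listed, the count was 83 of 137 in the pool, or 60.6%, 66 of 121 in replicate 1, or 54.5%, and 81 of 126 in replicate 2, or 64.3%. In that restricted set replicate 1 was close to even.

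Examples with high signal follow that pattern. The region 212 bp past pck-2, which encodes a phosphoenolpyruvate carboxykinase of gluconeogenesis, had 143 in the pool and lay inside suro-1, and 5' signal was 112 at pck-2 and 17.2 at suro-1. For adh-1, an alcohol dehydrogenase gene facing sodh-2, the 3' region had 109, and the 5' signals were 130 and 13.2. For vdac-1, the mitochondrial outer membrane channel, the 3' region had 93.4, with 65.7 at its own 5' end and no pooled region listed at that of glt-6, a glutamate transporter gene, where replicate 2 alone had a listed region, of 2.33. For crt-1, the calcium-binding chaperone calreticulin, the 3' region had 81.1, with 47.8 at its 5' end and 9.58 at that of smut-1.

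The reverse order occurred too. The region between iglr-3 and pcyt-2.1 lay 408 bp past iglr-3, which had no listed 5' region, and pcyt-2.1 had a 5' signal of 22.4. That summit was 42 bp from the snoRNA gene Y37E3.20. At ubq-1, the polyubiquitin gene, the pooled 5' signal of 17.7 was below the 28.3 of F25B5.5. The replicates differed there, with 14.04 against 22.5 in replicate 1 and 39.8 against 6.96 in replicate 2.

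Most genes under these regions were also occupied at their start. A listed region lay within 500 bp of the nearest gene's own 5' end for 696 of the 875, or 79.5% (interval 76.7 to 82.2), against the 32.5% of all protein-coding genes given above. For 372 of them, 42.5%, a 5' region was itself among the 5000 highest, which held for 10.7% of all protein-coding genes. Signal at the 3' end exceeded that at the 5' end in 496 of the 696, with a median log2 ratio of 0.66 and quartiles of -0.11 and 1.35. The regions were chosen for a high 3' signal, so this excess is partly set by the choice and is given as a description. In the separate lists the median was 0.56 in replicate 1 over 631 regions and 0.32 in replicate 2 over 621. The sign was the same in both replicates for 63.5% of the 513 regions that had a ratio in each.

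Across the 696 regions, Spearman's rho of 5' and 3' signal was 0.25. It is a value across regions of the same libraries that share depth and are not independent replicates. The selection cut the 3' signal at 18.2, while a 5' signal could be as low as the list itself, at 5.09. Such a cut can lower rho, so the value does not tell how both ends relate over all genes. The highest log2 ratios, 5.07 at R12E2.11 and 4.80 at ins-13, belonged to the regions over SL2 RNA genes described above. Next, nra-1 had 14.2 at its 5' end and 234 at its 3' end, a log2 ratio of 4.04, while its partner hsp-1 had 51.4 at its own 5' end. C15F1.5 came after it with 7.98 and 126, a log2 ratio of 3.99. Its summit was in an intron, 461 bp before the end and 31 bp from the ncRNA gene C15F1.14. C25H3.1 then had 6.13 and 74.0, a log2 ratio of 3.59, with a snoRNA gene, C18A3.12, 44 bp from the summit. The lowest ratio belonged to wwp-1, a HECT-type ubiquitin ligase gene, with 207 at the 5' end and 18.8 at the 3' end (log2 ratio -3.46). It was followed by cdc-48.1, the gene of a p97-type ATPase that extracts ubiquitinated proteins, with 188 and 19.0 (log2 ratio -3.31). The 3' region of cdc-48.1 had 24.4 in replicate 1 and none listed within 200 bp in replicate 2.

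**Figure D3:**
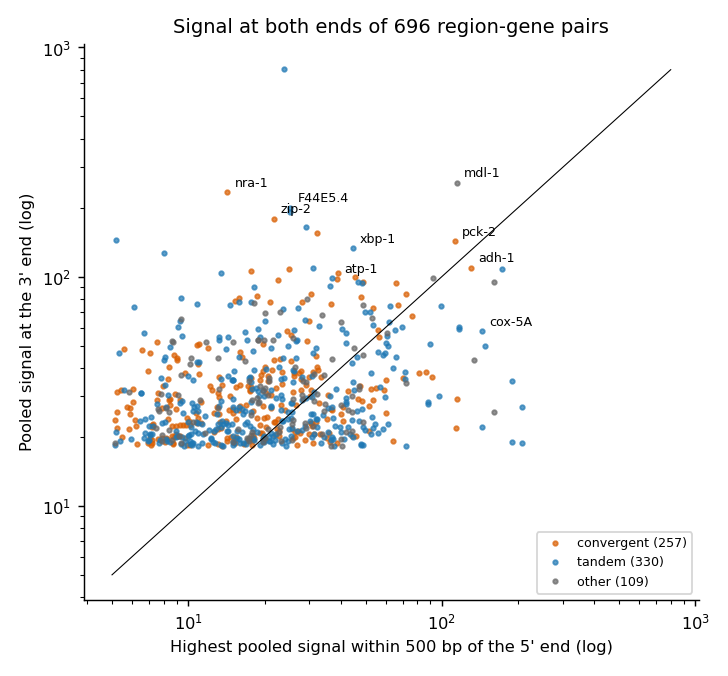
Pooled signal at the 3' region against the highest pooled signal within 500 bp of the nearest gene's 5' end, on log axes, for the 696 regions with both, coloured by neighbour arrangement. The line marks equal signal; 496 points lie above it, and nra-1 and zip-2 lie far above while adh-1 and cox-5A lie below.

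Regions at 3' ends were listed in both replicates about as often as all 5000 strong regions, but in replicate 1 somewhat less often. Of the 875, 751 had a listed region with a summit within 200 bp in each replicate, or 85.8%, against 87.5% of the 5000. The pooled list was made from both replicates, so a member's presence in them is partly set by the choice. Another 70 were listed in replicate 1 only, or 8%, and 54 in replicate 2 only, or 6.17%. The consensus list, the authors' thresholded set of 1328 regions, met 283 of the 875 (32.3%), against 27% of the 5000 and 30.3% of those at 5' ends. It met 1352 of the 5000, because matching within 200 bp lets a consensus region meet more than 1 pooled region. The share at 3' ends was 60.3% when 2500 regions were taken and 17.2% with 10000. It thus went with the pooled signal that the rule used. Signals of the separate lists were not rescaled to each other, and the median log2 ratio of replicate 1 to replicate 2 was 0.89 at the 751 and 0.78 over the 4377 of the 5000 listed in both. Pearson's r of log2 signal at the 751 was 0.40 and Spearman's rho 0.30, across regions of 1 pair of libraries. Over the 4377 these were 0.30 and 0.21. The regions were cut on a pooled signal made from the same replicates, so these values do not measure replicate agreement at 3' ends.

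The regions listed in replicate 2 alone included genes of the cuticle, the collagen exoskeleton that larvae remake at each moult. The highest was behind rol-8, a gene of body shape and cuticle, with 76.4 in the pool, 73.3 in replicate 2 and no listed region in replicate 1, and its summit was 3 bp from the ncRNA gene ZK1290.20. Next among collagens, col-17 had 52.4 in the pool and 56.9 in replicate 2, and sqt-3 had 41.8 and 45.3. Of the 16 cuticle collagen genes with a strong 3' region, 10 had none listed in replicate 1: col-17, sqt-3, col-128, col-90, col-41, rol-6, col-109, dpy-13, dpy-5 and dpy-4. The opposite held for 1, col-42, with 64.7 in the pool, 57.7 in replicate 1 and none listed in replicate 2. All 16 summits lay past the end, from 63 to 499 bp, and 5 were in both replicates, col-166 and col-10 the highest with 29.3 and 40.4, and 34.3 and 25.8.

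Other genes differed in rank while listed in both. atfs-1, the transcription factor of the mitochondrial unfolded protein response, had 4.19 in replicate 1 and 24.2 in replicate 2, and nsy-1, a MAP kinase kinase kinase gene, had 3.27 and 16.3. In the other direction dbn-1, a drebrin-like gene, had 16.3 and 2.36, and mag-1, a gene of the exon junction complex, had 19.0 and 2.26. In the coding sequence of icl-1, the bifunctional enzyme of the glyoxylate cycle, a region with its summit 199 bp before the end had 50.8 in the pool, 45.8 in replicate 1 and none listed within 200 bp in replicate 2. The Notch co-ligand gene osm-11 carried regions on both sides of its end. The one 194 bp past it had 59.3 in the pool, 35.5 in replicate 1 and none within 200 bp in replicate 2, and the one 58 bp before it had 60.4, 19.1 and 44.0. Before the end of osm-11 both replicates thus had a listed region, with summits 56 bp before it in replicate 1 and 73 bp in replicate 2. They differed in the region past the end, matched in replicate 1 only.

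**Figure D4:**
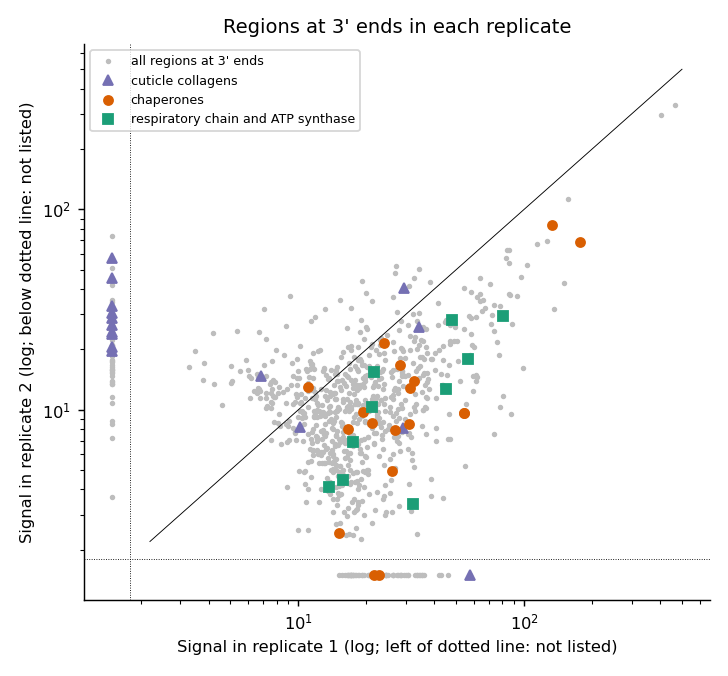
Signal of each region at a 3' end in replicate 1 and replicate 2 on log axes, with regions not listed in a replicate placed beyond the dotted lines. The 10 unlisted cuticle collagen genes (triangles) sit at the left margin of replicate 1. The chaperone genes (circles) and respiratory chain genes (squares) are all listed in replicate 1, as are 93.8% of all 875 regions. Of the chaperone genes, 2 are not listed in replicate 2.

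Counted by gene, 1087 of 19973 protein-coding genes, 5.44%, had a strong region within 500 bp of the 3' end. The share was 29.03% of chaperone genes (18 of 62), 25% of V-ATPase subunit genes (5 of 20), 21.3% of respiratory chain and ATP synthase genes (10 of 47), 21.2% of proteasome genes (7 of 33) and 18.5% of cytosolic ribosomal protein genes (15 of 81). It was 0.953% of chemoreceptor genes (13 of 1364), and the 4 intestinal genes of 76 and the 2 of 35 in the list of 3' end processing and termination factors were at 5.26% and 5.71%, near that background. Between these came glycolysis (3 of 19, 15.8%), muscle structure (7 of 48, 14.6%), splicing (6 of 55, 10.9%), translation factors (4 of 41, 9.76%), histones (8 of 84, 9.52%), cuticle collagens (16 of 174, 9.20%), pan-neuronal genes (2 of 22, 9.09%) and germline genes (2 of 31, 6.45%). Counts from 2 to 18 leave wide intervals, from 18.2 to 41.9 for the chaperones and from 8.66 to 49.1 for the V-ATPase. No test was made, since the lists were chosen with earlier results known.

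Among the chaperones, 14 of 18 genes had the summit past the end, a share near the 76.2% of all 875 regions. Besides hsp-1 and hsp-12.3, the list held small heat shock genes of the hsp-16 family: hsp-16.48 had a pooled 63.2, with 54.3 in replicate 1 and 9.68 in replicate 2, and hsp-16.2 had 28.5, 19.4 and 9.72. Genes of the CCT ring, the chaperonin that folds actin and tubulin, were represented by cct-7 with 45.2, cct-4 with 41.4 and cct-1 with 36.4. Co-chaperones outside the list ranked high too, with ahsa-1, an activator of Hsp90, at 103 and unc-23, a BAG family protein, at 108.

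Genes of energy metabolism followed. atp-1, the alpha subunit of the ATP synthase, had 97.9 in the pool, 80.7 in replicate 1 and 29.2 in replicate 2, at 158 bp past its end. nuo-4, a subunit of complex I, had 73.2, 48.1 and 28.0, and cox-5B, of cytochrome c oxidase, 69.8, 56.3 and 17.98. The glycolytic genes aldo-2, an aldolase, and gpd-3, a glyceraldehyde-3-phosphate dehydrogenase, had 95.1 and 94.3. All 10 respiratory genes with a strong 3' region were listed in both replicates, as were 85.8% of all 875 regions. Their signal ran from 20.0 to 97.9. All 10 had a listed region at the 5' end, against 79.5% of the 875. The 3' signal stood above that 5' signal in 6, against 71.3% of all regions with a listed 5' region.

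Ribosomal protein genes were common at the other end of the gene. A region of the 5000 highest lay at the 5' end for 71.6% of the list and at the 3' end for 18.5%. Over all protein-coding genes these shares were 10.7% and 5.44%. The 5' share was also the higher in other lists, such as the proteasome (57.6% and 21.2%), respiratory (57.4% and 21.3%) and chaperone lists (37.1% and 29.03%). It equalled the 3' share for germline genes and was below it for chemoreceptors (0.733% and 0.953%). The rule drops 3' regions within 500 bp of any 5' end and has no such limit for 5' regions, so at short genes this contrast is partly set by the rule. Of the 15 ribosomal protein genes with a strong 3' region, rpl-31 had the highest 3' signal, at 51.2 in the pool. Its region had 32.1 in replicate 1 and 17.02 in replicate 2, and the summit lay inside linc-1. In 6 of the 15, the 3' signal exceeded that at the gene's own 5' end, against 496 of 696, or 71.3%, over all regions with a listed 5' region. In the list of muscle structure genes, act-2 and act-1, actin genes, had 76.0 and 72.5, both with the summit inside an ncRNA gene. In the same list pat-4, integrin-linked kinase, had 44.0. Among histone genes those of linker histone were highest, hil-3 at 63.6 and his-24 at 55.2.

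**Figure D5:**
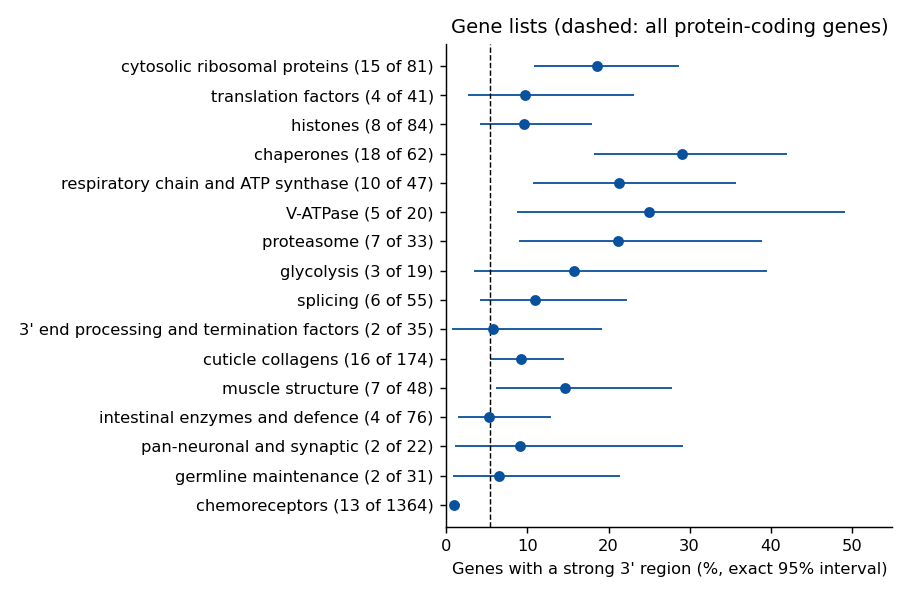
Percent of the genes of each list with a strong region within 500 bp of the 3' end, with exact 95% intervals that cover counting only, and the number of genes in brackets. The dashed line is the 5.44% of all protein-coding genes; chaperone, respiratory, V-ATPase, proteasome and ribosomal lists lie to its right and chemoreceptors to its left.

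The limits of the selection cut through a continuum. W07A12.8, asg-2 and vps-25 had the lowest signals inside it, 18.3, 18.2 and 18.2, and sdhb-1, F56H11.2 and C09B8.8 were just below, at 18.2 each. By distance, col-90 at 499 bp was just inside and asns-2 at 501 bp just outside, and sti-1, with a 5' end 508 bp from the summit, was kept while eef-1A.1, at 496 bp, was not. Of the 875, 35 had the start of another protein-coding transcript within 500 bp, and 97.5% were at genes with an annotated 3' UTR.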

How the data were processed

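Binding of AMA-1 was profiled by ChIP sequencing in 2 biological replicates of L1 larvae. The deposited lists hold 30000 regions per replicate and for the pool, and a consensus list of 1328, on ce11, each with the deposited signal value that the authors' peak caller gave it. By their names the lists of 30000 hold peaks and background, before the threshold that gave the consensus. Per the labels, the assemblies were ce11 and ce10; ce10 lists were not used. Neither the labels nor the deposited notes name the caller, its version or its scaling, and depth is unknown. Members and gene lists were chosen with earlier results of these data known.

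Regions were ranked on signal, and summits were taken from each list and placed against Ensembl release 115 genes on WBcel235. Replicate regions were matched to members by summits within 200 bp. Signed distance is positive past the nearest 3' end. A gene's 5' signal is the highest listed signal within 500 bp of its 5' end. The region that gives it can also lie near the 5' end of a neighbouring gene. F44E5.4 and F44E5.5, for example, have the same pooled 5' signal of 25.2. Intervals are exact (Clopper-Pearson) at 95% and cover counting only, since regions are not replicates; with 1 group there was no test between groups. Uniqueness is the percent of a region's 31-base words that occur nowhere else in the genome. Genes named were drawn from the 15 highest members in both replicates, the 3 highest of each class and list, the 5 most different between replicates, the 5 highest absent from each, the 5 highest and lowest ratios of 3' to 5' signal, and those at the limits; others, such as the pairs of convergent genes, were chosen after their values were seen. Placement was tested on simulated data. Tables were made in Python 3.11.15 with pandas 2.3.3 and numpy 2.4.6, intervals with scipy 1.17.1 and plots with matplotlib 3.10.9. Alternatives were 250 and 1000 bp limits, 2500 and 10000 regions, each replicate alone, transcript ends, unique regions and no non-coding gene nearby; those on the annotated 3' UTR, the 1328 highest regions and non-convergent ends were chosen after seeing the data.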

Additional observations from a re-analysis of the deposited data

How the results depend on the processing

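Most summits lay past the 3' end under every alternative run, from 71.0% to 83.3%, and the median log2 ratio of 3' to 5' signal stayed above 0 where it was computed. The alternatives on annotated 3' UTRs, on the 1328 highest regions and on non-convergent ends were run for position only. The AATAAA share was above that of all genes (51.4% against 48.2%) and below it among genes with an annotated 3' UTR (52.8% against 56.8%). Values that moved by more than the spread between the replicates' own lists follow. With 250 bp limits, 80.0% lay past the end, at a median of 128 bp, 25.4% were convergent, 8.14% had a non-coding gene nearby and 35.8% met the consensus. With 1000 bp limits these were 71.4%, 154 bp, 42.3%, and 29.1% in the consensus, and 77.1% had a listed 5' region. Taking 2500 regions left 463 at 3' ends, with 80.8% past the end, a median of 161 bp, 13.6% near a non-coding gene, 82.5% with a 5' region, a log2 ratio of 0.88, 91.1% in both replicates and 60.3% in the consensus. Taking 10000 gave 1663, 71.0%, 136 bp, 7.28%, 73.9%, 0.37, 76.5% and 17.2%. With the ends of every transcript, 72.2% lay past the end, at a median of 135 bp, and 78.2% had a 5' region. In unique regions the median was 147 bp, 6.90% were near a non-coding gene and the log2 ratio was 0.62. Without non-coding genes nearby it was 0.61, at 145 bp, with 29.5% in the consensus. At genes with an annotated 3' UTR the median was 147 bp, at the 1328 highest regions 83.3% lay past the end at a median of 154 bp, and with no convergent end 73.5% did at 144 bp.

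With each replicate's own list alone, 882 regions were at 3' ends in both cases, 71.9% to 75.2% lay past the end at medians of 137.5 to 139.5 bp, 37.4% to 41.7% were convergent, 8.28% to 9.41% had a non-coding gene nearby, and 76.5% to 77.6% had a 5' region. The log2 ratio was 0.66 to 0.69, 67.1% to 74.3% were in both replicates, 29.3% to 32.2% met the consensus and 49.3% to 56.4% of ends had AATAAA. The cause of these differences was not tested. No paired analysis was possible because all samples form 1 group. With 2 replicates and depth unknown, absence from a list cannot be read as absence of polymerase, signals of separate lists are not on a shared scale, and annotated ends may differ from those used in L1 larvae.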

Other observations

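By chromosome, the share of protein-coding genes with a strong region at the 3' end was 7.80% on III, 6.12% on I, 5.94% on II, 5.39% on IV, 4.21% on V and 4.14% on X. The share of summits past the end was lowest on I, at 70.1%, and highest on III, at 80.2%. Of the 808 nearest genes, 61 carried at least 2 of the regions. At tent-5, which encodes a terminal nucleotidyltransferase, there were 3. The region 164 bp past the end had 54.8 in replicate 1 and 5.23 in replicate 2, the one 97 bp before the end had 42.8 in replicate 1 and none within 200 bp in replicate 2, and the one 347 bp before it had 51.1 in replicate 2 and none within 200 bp in replicate 1.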
